A study of Mus musculus with 2 samples.

Results

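The genes described are 8 imprinted genes of mouse: H19, Igf2, Igf2r, Airn, Cdkn1c, Kcnq1ot1, Phlda2 and Plagl1. They were taken by name, and all 8 were found among the 55536 Ensembl genes of the gene tables. Total RNA was sequenced from gastrocnemius, the large calf muscle, of female mice of the B6CASTF1/J strain at 4 days of age, a first-generation cross of C57BL/6J and CAST/EiJ. There was 1 group of 2 libraries, replicates 1 and 2, from animals numbered 3 and 4 in the labels. Each library was made from 300 ng of RNA with ERCC spike-ins, which are synthetic RNAs added in known amounts. No treatment, genotype or other age was compared. Both libraries carry the same donor record in the labels, so a litter or other source in common cannot be told apart from separate ones, and the SDs below measure only the spread between these 2 samples.

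Imprinted genes are transcribed mainly from the allele of 1 parent, and many lie in clusters under a differentially methylated control region. On distal chromosome 7, the maternal allele gives H19, a long noncoding RNA that is the host of miR-675, and the paternal allele gives Igf2, a growth factor. The neighbouring cluster on that chromosome holds the maternally expressed growth restrainers Cdkn1c and Phlda2 and the paternally expressed antisense RNA Kcnq1ot1. On chromosome 17, Igf2r, a maternally expressed receptor that clears the Igf2 protein, is overlapped by the paternally expressed antisense RNA Airn. Plagl1 on chromosome 10 encodes a paternally expressed zinc finger transcription factor. Several of these genes are known for high RNA levels in fetal and newborn muscle and other tissues that decline with age. The parental alleles were not separated in the tables, so every value is a sum over both.

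The mature miRNAs that H19 and Igf2 host are shown because their sequences lie inside the 2 most abundant members. Sequences are from RefSeq (GRCm38.p6), written 5′ to 3′ with the seed, bases 2 to 8, in capitals.
mmu-miR-675-5p: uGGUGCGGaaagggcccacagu
mmu-miR-675-3p: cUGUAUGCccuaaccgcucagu
mmu-miR-483-5p: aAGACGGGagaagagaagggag
mmu-miR-483-3p: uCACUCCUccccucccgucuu
The miR-675 arms lie at chr7:142577112-142577133 and chr7:142577078-142577099 on the minus strand, within exons of H19-202, H19-205 and H19-206. The miR-483 arms lie at chr7:142654968-142654989 and chr7:142654932-142654952 on the minus strand, in an intron of Igf2. The 4 arms share no seed with each other, and each seed was held by 1 of the 1738 mature miRNAs in the table. The short hairpin genes Mir675 and Mir483 were listed at 0 expected counts in both libraries, and the processed miRNAs were not measured by these tables.

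Igf2 is transcribed from several promoters, whose RNAs differ in their first exons. The sequence upstream of 3 annotated Igf2 starts is shown because transcripts of these starts are compared below. RefSeq windows run from 250 bases before to 50 bases after a start. Only the bases upstream of the start and outside annotated exons are printed, from GRCm38.p6 on the minus strand, with matches to GGGCGG, a core of the GC box, in capitals.
Igf2 upstream of 142657496, chr7:142657497-142657746: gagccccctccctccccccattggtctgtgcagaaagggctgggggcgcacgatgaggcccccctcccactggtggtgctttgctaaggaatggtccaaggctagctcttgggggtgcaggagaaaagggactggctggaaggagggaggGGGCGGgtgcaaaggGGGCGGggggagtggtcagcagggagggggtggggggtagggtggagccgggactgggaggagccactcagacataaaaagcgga
Igf2 upstream of 142661271, chr7:142661306-142661521: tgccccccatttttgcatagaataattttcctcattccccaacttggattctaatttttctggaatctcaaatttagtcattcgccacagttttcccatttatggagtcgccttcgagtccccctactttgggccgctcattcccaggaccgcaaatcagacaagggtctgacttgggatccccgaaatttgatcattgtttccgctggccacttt
Igf2 upstream of 142666816, chr7:142666817-142667066: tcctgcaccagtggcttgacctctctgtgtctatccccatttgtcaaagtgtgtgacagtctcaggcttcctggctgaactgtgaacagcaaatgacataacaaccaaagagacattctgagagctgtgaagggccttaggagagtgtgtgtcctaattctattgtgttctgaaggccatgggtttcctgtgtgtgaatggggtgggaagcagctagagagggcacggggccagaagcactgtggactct
The start at 142657496 is that of Igf2-201, with Igf2-202 beginning nearby. The start at 142666816 is that of Igf2-203, the outermost. The RefSeq start at 142661271 lies close to the first bases of Igf2-204 and Igf2-206. The whole 300-base windows had a GC content of 63.3%, 49.7% and 52.3% in the printed order, beside a median of 52.7% over all 32851 windows. They held 7, 14 and 2 CpG dinucleotides beside a median of 7. Both strands were searched. The first window had 2 matches to GGGCGG, a motif found in 35.7% of all windows, and the others had none. TATAAA, found in 13.6% of all windows, was in none of the 3. CCCTC, part of the core motif of the CTCF protein, had 6 matches in the first window, none in the second and 1 in the third, and it was found in 66.0% of all windows. Another Igf2 window, at the RefSeq start 142658804, is not printed because its upstream bases lie in annotated exons. It had a GC content of 64.7%, 24 CpG dinucleotides, 1 match to GGGCGG and 8 to CCCTC. These matches describe the letters of the windows and nothing more.

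The libraries held 30961087 and 36246031 expected counts in replicates 1 and 2, which are read counts estimated after sharing out reads that fit several transcripts. Levels below are TPM (length-scaled transcript units with the same total in each library), which take length into account and can be compared between genes. A gene was called detected if neither library had it under 1 TPM, which held for 13336 of 55536 genes (24.0%). Of the 8 members, 7 were detected, and Phlda2 was the exception. All 6 skeletal muscle markers were detected, from Acta1, which encodes skeletal actin, to Ttn, which encodes titin. Their sums were 35335 TPM (replicate 1) and 41849 TPM (replicate 2).

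H19 was the most abundant of the 8. It had 6979 TPM in replicate 1 against 8030 TPM in replicate 2 (7504 ± 743, SD, n = 2), rank 10 of all genes. It is annotated as a lincRNA at chr7:142575529-142578143 on the minus strand of mm10, with 7 transcripts. It took 406921 and 530860 expected counts, which were 1.31% (95% exact Clopper-Pearson interval 1.31 to 1.32) and 1.46% (1.46 to 1.47) of the library. Such intervals hold counting error alone, because PCR copies of a molecule could not be told from separate molecules. Replicate 2 was the higher library on both scales.

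Igf2, the growth factor of the same domain, followed at 4480 TPM in replicate 1 and 5621 TPM in replicate 2 (5050 ± 807, SD, n = 2), rank 15. It lies at chr7:142650766-142666816 on the minus strand, with 9 transcripts. It took 260614 and 337482 expected counts. Replicate 2 was again the higher, and the ranges of H19 and Igf2 did not overlap. H19 exceeded Igf2 1.56-fold in replicate 1 and 1.43-fold in replicate 2. As a share of their summed TPM, H19 made up 60.9% and 58.8% (59.9% ± 1.47, SD, n = 2). On expected counts the share was 61.0% and 61.1%, so H19 led in both libraries on both scales.

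Cdkn1c encodes p57Kip2, an inhibitor of cyclin-dependent kinases that holds cells out of the cycle. Its level was 617 TPM in replicate 1 and 716 TPM in replicate 2 (666 ± 69.8, SD, n = 2), rank 91, from 24910 and 32768 expected counts. It lies at chr7:143458339-143461050 on the minus strand. Its range lay below that of Igf2, whose mean level was 7.58 times higher.

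Plagl1, the transcription factor, stood at 207 TPM in replicate 1 and 225 TPM in replicate 2 (216 ± 12.8, SD, n = 2), rank 306, from 18829 and 21119 expected counts. It lies at chr10:13060504-13131694 on the plus strand, with 25 transcripts. Its libraries lay close together beside their distance from Cdkn1c and Igf2r.

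Igf2r, the clearance receptor, was at 69.9 TPM in replicate 1 and 79.4 TPM in replicate 2 (74.7 ± 6.75, SD, n = 2), rank 897, from 16950 and 21919 expected counts. It lies at chr17:12682406-12769664 on the minus strand. Igf2 RNA exceeded Igf2r RNA 64.1-fold in replicate 1 and 70.8-fold in replicate 2. The ligand was therefore far above this receptor in RNA level in both libraries.

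Airn, the antisense RNA that starts within Igf2r, was at 22.8 TPM in replicate 1 and 20.8 TPM in replicate 2 (21.8 ± 1.44, SD, n = 2), rank 3223. It lies at chr17:12741311-12860136 on the plus strand and took 627 and 645 expected counts. Replicate 1 had the higher level here. The annotated Airn transcripts are spliced and short against the 119-kb span, and reads of an unspliced Airn RNA have no transcript of their own in this annotation. Airn and Igf2r share 0 exon bases.

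Kcnq1ot1, the antisense RNA of the Cdkn1c cluster, was at 3.46 TPM in replicate 1 and 3.14 TPM in replicate 2 (3.30 ± 0.226, SD, n = 2), rank 10645. It is annotated as 1 transcript of 93092 bases at chr7:143203458-143296549 on the minus strand. The low level per length came from 9008 and 9281 expected counts, more than Airn took. In TPM Kcnq1ot1 was the lowest of the 7 detected members, since its counts are spread over a long transcript.

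Phlda2, a maternally expressed gene known to limit placental growth, had 4 expected counts in replicate 1 and 1 in replicate 2. These gave 0.22 and 0.11 TPM (0.165 ± 0.0778, SD, n = 2). It lies at chr7:143501545-143503150 on the minus strand, between Slc22a18 and Nap1l4. A count of 4 is near the limit of 3 that a count of 0 allows, so a difference between the libraries was not detectable at this depth.

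The order of levels was H19, Igf2, Cdkn1c, Plagl1, Igf2r, Airn, Kcnq1ot1 and Phlda2, and no neighbours in that order had overlapping ranges over the 2 libraries. The ratio of mean TPM between neighbours ran from 1.49, between H19 and Igf2, to 20.0, between Kcnq1ot1 and Phlda2. Another pair of transcript tables, made by the authors with a separate quantification and summed per gene here, gave the same order, with ratios of 1.49 to 23.1. The member levels in TPM were higher there. H19 averaged 12892 TPM, Igf2 8678 TPM, Cdkn1c 1349 TPM, Plagl1 373 TPM, Igf2r 119 TPM, Airn 50.8 TPM, Kcnq1ot1 5.97 TPM and Phlda2 0.259 TPM. Detected genes as a whole were a median 1.74-fold higher there, with a 10th to 90th percentile range of 1.38 to 2.31. Airn, at 2.33-fold, lay just above that range and the 7 other members did not. Rn7s1 and Rn7s2, the RNAs of the signal recognition particle, took 36.0% of all TPM in the gene tables and 0.00016% in the other quantification.

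**Figure D1:**
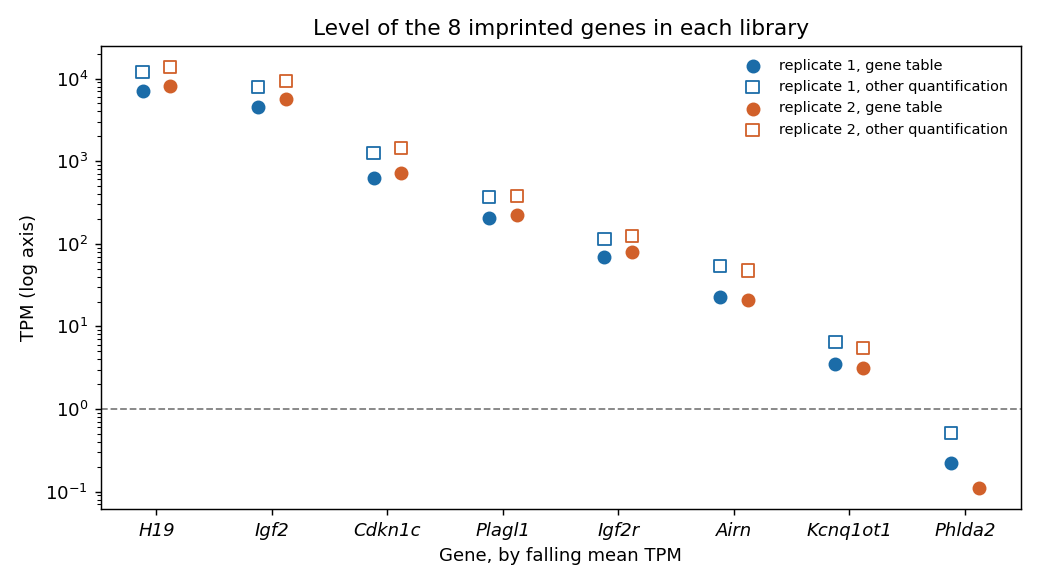
The vertical axis is the level in TPM on a log axis and the horizontal axis lists the 8 genes by falling mean. Filled points are the 2 libraries in the gene tables and open squares the same libraries in the other quantification, with a dashed line at 1 TPM; Phlda2 in replicate 2 is at 0 in the other quantification and not drawn there. H19, at 6979 and 8030 TPM in the gene tables, and Phlda2, at 0.22 and 0.11 TPM, are the ends of the same order in both.

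The 3 genes nearest in level to each of the leading members were chosen by the smallest sum, over both libraries, of the absolute log2 difference in TPM. For H19 they were Myl1, a fast myosin light chain (sum 0.31), the mitochondrial gene mt-Co1 (0.62) and Igf2 (1.15). For Igf2 they were Myh8, the perinatal myosin heavy chain (0.35), Ckm, muscle creatine kinase (0.37), and mt-Co1 (0.54). For Cdkn1c they were Des, the filament protein desmin (0.03), Actn2, an actinin of the Z disc (0.04), and Itm2a (0.09). The measure was taken over 2 libraries and, since the genes were picked for their likeness in level, says nothing more.

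The transcripts of H19 were led by H19-202, a 5-exon transcript of 2286 bases that starts at 142578143. It made up 89.1% and 89.0% of the gene's TPM in replicates 1 and 2, and 93.5% and 93.6% of its expected counts. H19-205, which starts at 142577386, made up 5.27% and 4.91% of TPM. H19-207, which starts at 142576959, made up 5.03% and 5.53%. The other 4 transcripts, H19-201, H19-203, H19-204 and H19-206, stood at 0.256% or less each in replicate 1 and 0.241% or less each in replicate 2. The H19 RNA was thus assigned mostly to 1 transcript in both libraries.

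The other quantification also put H19-202 first, at 83.7% and 80.5% of TPM. It differed over H19-206, a 2-exon transcript of 761 bases, which held 11.7% and 15.4% of TPM there and 0.193% and 0.115% in the main tables. It gave H19-207 only 0.239% and 0.242%. The leading transcript was therefore the same in both kinds of table, and the minor ones were not.

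Igf2 had no such leader. Its 9 transcripts were grouped by their 5′ start, joining starts within 100 bases. This gave 5 upstream starts and 2 internal starts of transcripts, Igf2-208 and Igf2-209, whose first exon overlaps a later exon of another Igf2 transcript. The start at 142657496 (Igf2-201 and Igf2-202) held the most TPM, 26.6% in replicate 1 and 24.4% in replicate 2 (25.5% ± 1.62, SD, n = 2). The internal Igf2-208, a 2-exon transcript of 958 bases, came next at 21.4% and 22.8%. The start at 142661870 (Igf2-207) followed at 16.5% and 23.1%. These ranges of Igf2-207 and Igf2-208 overlapped, so their order was not settled by the 2 libraries.

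The start at 142659489 (Igf2-205) held 17.5% and 14.7% of the gene's TPM, and that at 142666816 (Igf2-203) held 12.5% and 10.3%. The start at 142661305 (Igf2-204 and Igf2-206) held 5.28% and 4.75%. The internal Igf2-209 held 0.149% and 0.152%. Transcripts of every start were given expected counts in both libraries of the main tables, and their shares were spread wider than those of H19.

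TPM divides reads by length, so short transcripts weigh more in it than in counts, and Igf2-207 has 376 bases where Igf2-205 has 4722. On expected counts the starts at 142657496 and 142659489 stood well above the rest, at a mean of 37.7% and 37.4%. The leader turned between the libraries. In replicate 1, Igf2-205 took 101662 expected counts against 96984 for Igf2-201 and Igf2-202 together. In replicate 2 it took 120973 against 128660. The deposited posterior SD of the Igf2-205 count was 664 and 678, so these gaps were larger than the estimate's own uncertainty, but they had opposite signs. Igf2-207 held 2.79% of the gene's counts on average.

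Among the 5 upstream starts alone, that at 142657496 held 34.0% and 31.6% of TPM, and that at 142659489 held 22.4% and 19.01%. Igf2-207 held 21.05% and 29.9%, a range that overlapped that of Igf2-205 and stayed under that of the leading start. Igf2-203 held 15.9% and 13.3%, and the start at 142661305 held 6.73% and 6.16%. Replicate 2 was higher only at Igf2-207.

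The other quantification gave a different division of Igf2. The internal Igf2-209, a 2-exon transcript of 462 bases, held most TPM there, 26.7% and 32.4%. Igf2-207 was listed at 0 in both libraries. The start at 142661305 held a mean of 5.01% of TPM in the main tables and 16.3% in the other, and on counts 9.34% and 30.5%. On counts of the other quantification the starts at 142657496 and 142659489 held 30.8% and 30.1%, so 3 starts were near each other there. For Igf2-204 alone, the main tables gave 24303 and 31111 expected counts with posterior SDs of 787 and 788, and the other quantification gave 77018 and 125293 counts. The gap between the quantifications was thus many times the uncertainty stated in either main table, while the sum over Igf2 starts at the gene level kept its rank among the members. Igf2-203 held 8.28% of TPM on average in the other quantification and 11.4% in the main tables.

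**Figure D2:**
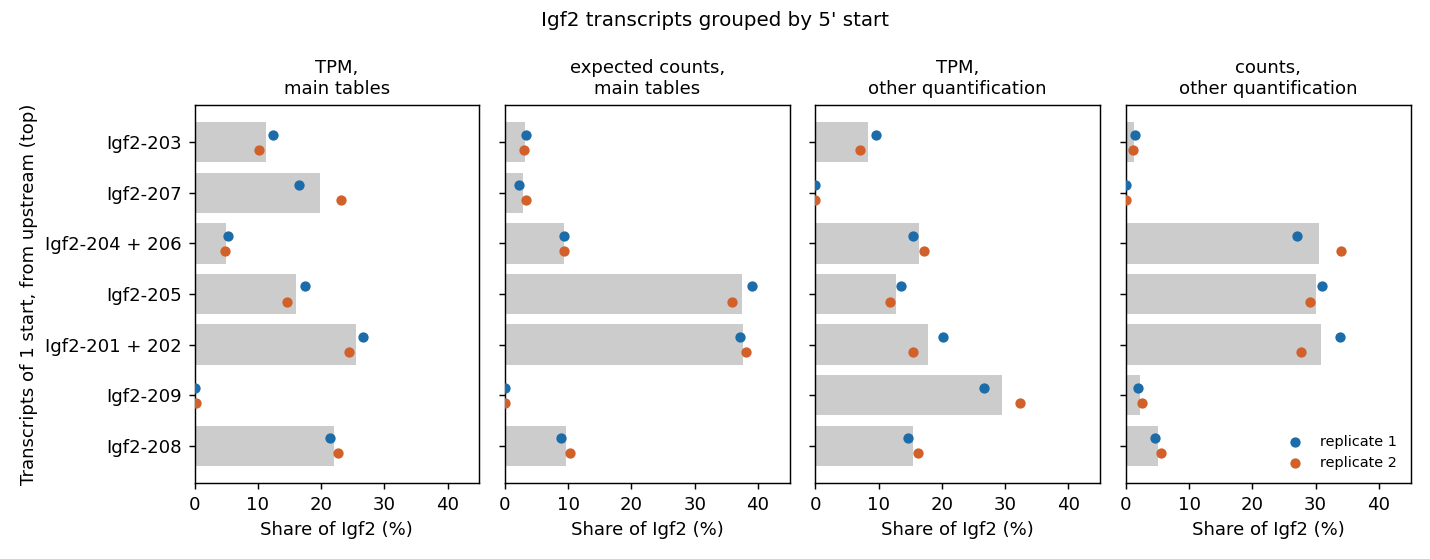
Each row is a 5′ start of Igf2, from upstream at the top, and the horizontal axes give its share of Igf2 in percent on 4 scales: TPM and expected counts of the main tables, and TPM and counts of the other quantification. Bars are means of 2 libraries and points the libraries. Igf2-201 and Igf2-202 hold 25.5% of TPM and 37.7% of counts in the main tables, and Igf2-209 leads on TPM only in the other quantification.

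Cdkn1c was led by the start at 143461050 (Cdkn1c-201 and Cdkn1c-202), which held 71.2% and 71.1% of its TPM. Cdkn1c-201 held 52.7% and 51.5%, Cdkn1c-205 held 26.9% and 27.8%, and Cdkn1c-202 held 18.5% and 19.6%. The 3 kept this order in both libraries. In the other quantification the leading start held 52.5% on average, with Cdkn1c-202 at 28.7% above Cdkn1c-201 at 23.8%. Cdkn1c-204, a transcript of 500 bases, held 19.8% there and 0.524% in the main tables.

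**Figure D3:**
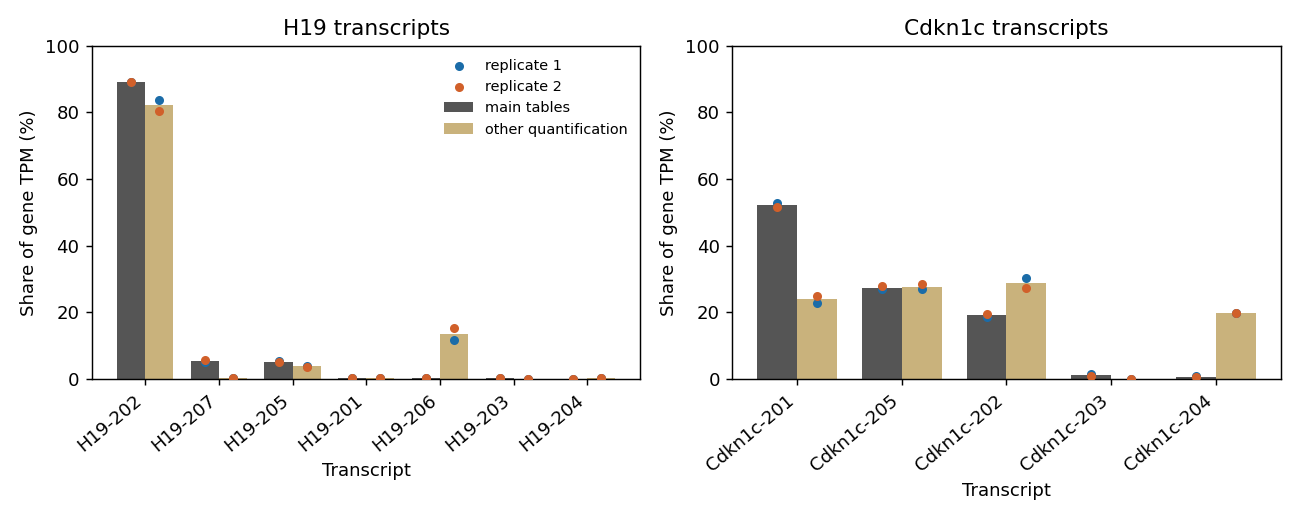
The vertical axes give the share of the gene's TPM in percent for each annotated transcript of H19 (left) and Cdkn1c (right). Bars are means of the 2 libraries in the main tables (dark) and the other quantification (light), and points are the libraries: H19-202 leads in both, while Cdkn1c-201 leads with 52.7% and 51.5% in the main tables only.

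Igf2r was nearly all Igf2r-201, an RNA of 48 exons, at 98.4% and 98.8% of TPM. Airn was divided among Airn-201 at 43.5% and 50.4%, Airn-205 at 35.1% and 30.2%, and Airn-203 at 15.9% and 16.4%. Plagl1 was led by Plagl1-202 at 58.0% and 51.7%, with Plagl1-220 at 9.80% and 11.6% and Plagl1-208 at 8.87% and 11.4%. In the other quantification Plagl1-202 also led, at a mean of 56.6%, while Plagl1-220 was listed at 0 and Plagl1-208 averaged 0.483%. Airn-201 led Airn there too, at 38.9%, with Airn-203 at 35.9% above Airn-205 at 22.9%. A group of 21 Plagl1 transcripts, with starts joined within 100 bases and the outermost at 13090691, held 76.3% and 72.7% of TPM. It held a mean of 96.6% of counts. The upstream start at 13060504, of Plagl1-225, was listed at 0 in both libraries. Kcnq1ot1 has a single transcript.

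The promoter windows of 5 other members had GC contents of 70.7% at Igf2r and at Plagl1, 65.7% at Phlda2, 53.3% at Kcnq1ot1 and 45.7% at Airn. They held 34 CpG dinucleotides at Igf2r, 26 at Plagl1, 26 at Phlda2, 9 at Kcnq1ot1 and 3 at Airn. Of these 5, all but Airn were above the median of 7. Plagl1 and Phlda2 had the same CpG count, with 216 and 0.165 TPM on average. All 250 upstream bases of the Phlda2 window and 141 of those of the Plagl1 window lie in annotated exons of the gene.

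The antisense pairs were set side by side as shares of summed TPM. Airn made up 24.6% of Airn plus Igf2r in replicate 1 and 20.7% in replicate 2 (22.7% ± 2.74, SD, n = 2). On expected counts its share was 3.57% and 2.86%. TPM divides by the annotated length, which is much longer for Igf2r than for the spliced Airn transcripts. Kcnq1ot1 made up 50.4% and 51.5% of Kcnq1ot1 plus Kcnq1 (51.0% ± 0.734, SD, n = 2), where Kcnq1 encodes a potassium channel and lay at 3.40 and 2.96 TPM. On expected counts the share of Kcnq1ot1 was 97.7% and 97.6%. Both antisense RNAs were given expected counts beside their partners. Airn was the smaller of its pair and Kcnq1ot1 the larger of its pair on both quantities of the main tables, with gaps of different size. In the other quantification Kcnq1ot1 held 52.7% and 49.3% of the TPM of its pair, so neither partner led in both libraries there. Cdkn1c exceeded Kcnq1ot1 178-fold in replicate 1 and 228-fold in replicate 2 in TPM.

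Whether counting used strand was not given in the sources used here, which leaves overlapping genes uncertain. Kcnq1 shares 121 of its 4093 exon bases with Kcnq1ot1. The single exon of Kcnq1ot1 lies wholly within the span of Kcnq1 on the opposite strand. Without strand, reads from introns of Kcnq1 there could not be told from reads of Kcnq1ot1. Igf2os, an antisense gene, shares 98 exon bases with Igf2 and took 626 and 683 expected counts. Gm44732, opposite Cdkn1c, shares 625 of its 635 exon bases with it and took 119 and 150. Gm49394 shares 3596 of its 4738 exon bases with Igf2 on the same strand and took 122 and 125 expected counts. Against the counts of Igf2 and Cdkn1c each of these overlapping genes was small. These are counts after shared reads were divided, so they do not measure how many reads the overlaps affect.

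Along the chromosome 7 region the imprinted genes stood beside very unequal neighbours. Of 12 listed neighbours of H19 and Igf2, 6 were detected. Tnnt3 and Tnni2, which encode fast troponins, led at 3622 ± 271 and 2793 ± 284 TPM (SD, n = 2), followed by Ctsd, a lysosomal protease, at 101 ± 1.94 TPM and Lsp1 at 11.7 ± 2.26 TPM. Syt8, Nctc1, Mir675, Mir483, Ins2 and Th averaged under 1 TPM. Ins2 encodes insulin and Th tyrosine hydroxylase, and both lie beyond Igf2. Nctc1, a noncoding RNA beside H19, was at 0.91 and 0.38 TPM. The 2 troponin genes, H19 and Igf2 thus stood far above the genes between and beside them. Mrpl23, of the mitochondrial ribosome, was at 2.77 ± 0.481 TPM in the gene tables and at 110 TPM in the other quantification.

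Of 12 listed neighbours of Cdkn1c and Kcnq1ot1, 9 were detected. Cd81, a tetraspanin, led at 139 ± 7.90 TPM (SD, n = 2), with Nap1l4, a histone chaperone, at 58.9 ± 6.45, Osbpl5 at 22.2 ± 0.311 and Cars, a transfer RNA synthetase, at 16.6 ± 1.42. Ascl2, Tspan32 and Slc22a18 averaged under 1 TPM. Cdkn1c was above all 12. Ascl2, Slc22a18 and Phlda2 are known as imprinted in placenta, and each was under 1 TPM here. They were named after their values were seen, and the placental imprinting of the detected neighbours was not considered. Their low levels therefore do not stand for the placentally imprinted genes of the cluster as a set.

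**Figure D4:**
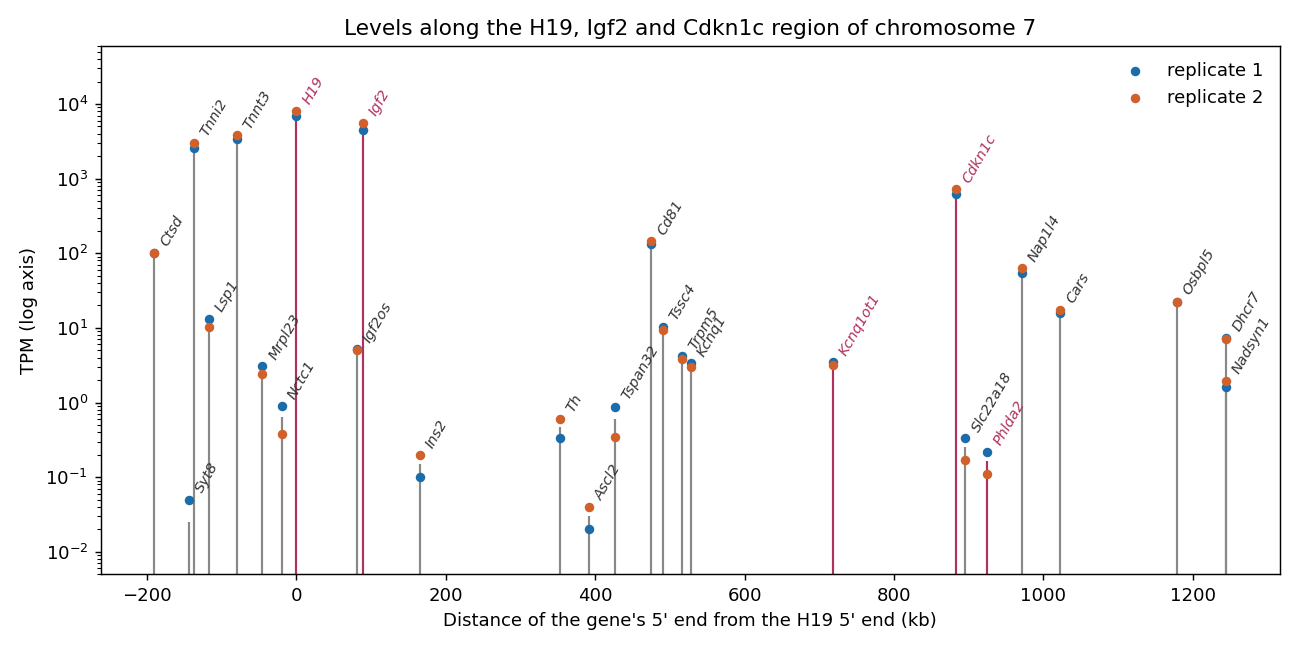
The horizontal axis is the distance in kb of each gene's 5′ end from that of H19 and the vertical axis its level in TPM on a log axis, with points for the 2 libraries, a stem to the mean and members in red; genes at 0 are not drawn. The means fall from 7504 TPM at H19, 5050 at Igf2, 3622 at Tnnt3 and 2793 at Tnni2 to 666 at Cdkn1c and 0.165 at Phlda2.

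Around Igf2r, 5 of 10 listed neighbours were detected, led by Tcp1, a chaperonin subunit, at 113 ± 2.17 TPM (SD, n = 2), Mrpl18 at 30.5 ± 1.37, Map3k4 at 10.9 ± 1.16 and Acat2 at 9.96 ± 0.438. Slc22a2, Mas1, Plg and Pnldc1 were among those that averaged under 1 TPM. Slc22a2 and Slc22a3, known as imprinted with Airn in placenta, stood at 0 and at 1.08 ± 0.0707 TPM. Among neighbours and relatives of Plagl1, 7 of 8 were detected, led by Utrn, which encodes utrophin, at 40.6 ± 2.25 TPM, Phactr2 at 29.1 ± 0.219, Ltv1 at 11.3 ± 0.453 and Fuca2 at 10.7 ± 1.89. Stx11 averaged 0.78 TPM. Plagl1 had a higher mean than all 8 of its list. Of the 10 listed around Igf2r, only Tcp1 had a higher mean than Igf2r.

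All 8 listed genes of IGF signalling were detected. Igf1, the other growth factor of the family, was at 66.7 ± 2.91 TPM (SD, n = 2). The adaptor Irs1 was at 36.9 ± 5.37, the insulin receptor Insr at 27.2 ± 1.80 and the signalling receptor Igf1r at 15.6 ± 0.325. Igf2r, at 74.7 TPM, had a higher mean than each of the 8. This did not hold in the other quantification, where Igf1 averaged 135 TPM and Igf2r 119 TPM. The remaining 4, Irs2 and the Igf2 RNA-binding proteins Igf2bp1, Igf2bp2 and Igf2bp3, ranged from 2.75 to 11.9 TPM.

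The 4 listed relatives of Cdkn1c and Phlda2 were also all detected. Cdkn1a was at 55.5 ± 0.820 TPM and Cdkn1b at 17.8 ± 2.69 (SD, n = 2), both inhibitors of the same family as Cdkn1c and both well below it. Phlda3 was at 13.9 ± 1.14 and Phlda1 at 4.68 ± 0.750, so Phlda2 was the member of its family without detected RNA. Of 9 listed genes that keep imprints, 7 were detected. Trim28 was at 92.9 ± 4.98 TPM, Zfp445 at 28.8 ± 4.79, Ctcf, which binds the H19 control region, at 22.1 ± 0.629 and the maintenance methyltransferase Dnmt1 at 17.3 ± 0.198. Ctcfl and Dppa3, known from germ cells and the early embryo, averaged 0.01 and 0 TPM.

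The libraries were compared as the log2 ratio of replicate 2 over replicate 1, after edgeR's TMM scaling and with a prior count of 2. With 1 library on each side there is no test. Over all 17598 genes that averaged at least 10 expected counts, 659 were over 2-fold apart (3.74%). Of the 7 members with that many counts, 0 were, and 0 were with spike-in scaling, where 4.56% of all genes were. Cdkn1c had a log2 ratio of 0.22, H19 of 0.21, Igf2 of 0.20 and Igf2r of 0.19. Plagl1 had -0.01, Kcnq1ot1 -0.13 and Airn -0.14. So 4 members were higher in replicate 2 and 3 lower, where 49.7% of all genes were higher. The median was 0.19 over these 7 members and -0.00 over all genes.

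Counting intervals (95%, from the 2 counts) ran from -0.30 to 0.02 for Airn, from -0.04 to 0.02 for Plagl1 and from -0.18 to -0.09 for Kcnq1ot1. Those of H19, 0.20 to 0.21, and Cdkn1c, 0.19 to 0.24, stayed above 0. For Phlda2 the ratio of the scaled counts was 0.221 with an interval of 0.00449 to 2.23, too wide to place it. Scaling by the ERCC spike-ins moved the median of all genes to -0.14 and the members with it. Cdkn1c then had 0.08, H19 0.07, Igf2 and Igf2r 0.05, Plagl1 -0.15, and Airn and Kcnq1ot1 -0.28. The 4 higher members remained above 0, as did 24.2% of all genes, and the 3 lower ones below. In the other quantification the sign of Plagl1 turned, to 0.01, and the other 6 kept theirs. Airn and Kcnq1ot1 were below 0 and H19, Igf2, Igf2r and Cdkn1c above 0 in these 3 comparisons. All 3 use the same 2 libraries, so the shared signs are not separate evidence. Spike-in scaling lowered the ratios by nearly the same amount, so a member below 0 was bound to stay there.

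Markers of other tissues also moved between the libraries. All 8 liver markers were over 2-fold higher in replicate 2, with a sum of 11.3 TPM in replicate 1 against 114 TPM in replicate 2, and none was at 0. All 6 red cell markers were over 2-fold lower in replicate 2, with sums of 1235 and 230.0 TPM, and none was at 0. Of 7 markers of cartilage and bone, 6 were lower and 5 of them over 2-fold, with sums of 37.6 and 12.1 TPM, and Ibsp and Col10a1 were at 0 in replicate 2. The skeletal muscle markers were all higher in replicate 2, with a median log2 ratio of 0.24, close in size to H19, Igf2 and Cdkn1c. The 5 endothelial markers and the 5 markers of muscle stem cells were also all higher, with medians of 0.12 and 0.18. Of the 5 fibroblast markers, 1 was higher and 4 were lower, with a median of -0.13. These ratios used TMM scaling. With spike-in scaling all 5 endothelial markers were below 0, from -0.067 at Kdr to -0.0055 at Tek. The skeletal muscle and muscle stem cell markers stayed above 0 with it, down to 0.00084 at Pax7. Fetal liver is known as a source of H19 and Igf2 RNA. The part of these cell types in the member ratios was not tested, and in whole tissue fewer cells of a type and less RNA per cell cannot be told apart.

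**Figure D5:**
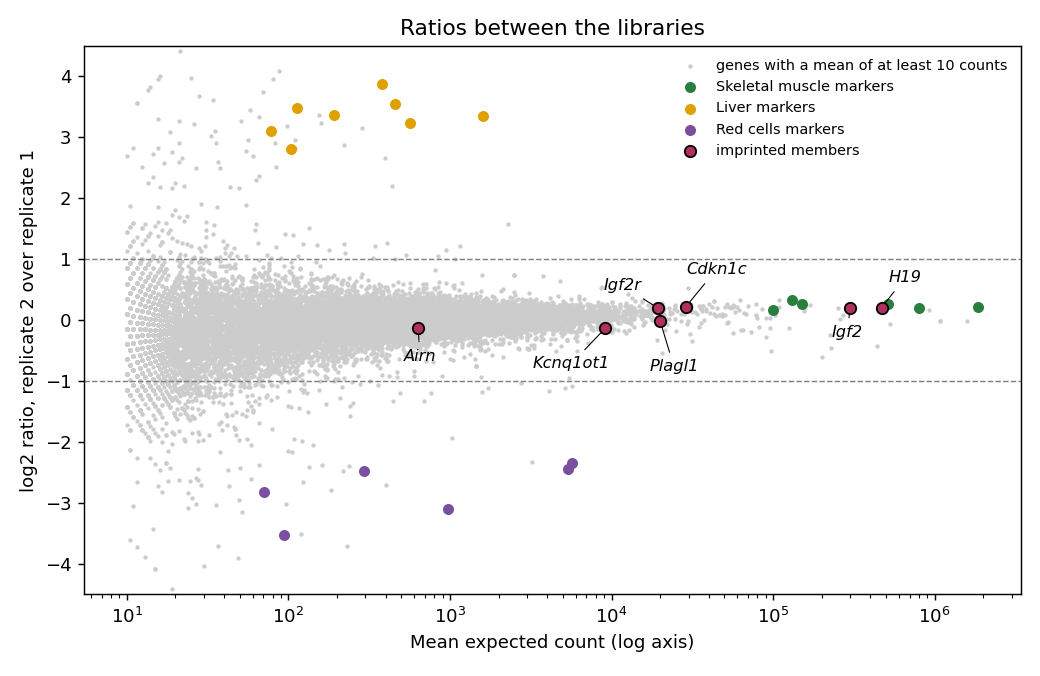
The horizontal axis is the mean expected count of a gene on a log axis and the vertical axis the log2 ratio of replicate 2 over replicate 1 after TMM scaling; grey points are genes that average at least 10 counts, coloured points the 7 members and 3 marker lists, and 15 genes beyond the axis limit of 4.5 are not drawn. The members lie between -0.14 and 0.22, the liver markers above 1 and the red cell markers below -1.

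The 63 listed neighbours, relatives and pathway genes were read against the same background. Of the 54 that averaged at least 10 counts, 1 was over 2-fold higher in replicate 2, beside 1.02% of all genes, and 3 were over 2-fold lower, beside 2.72%. The gene that was higher was Plg, the plasminogen gene, which is known as a liver gene. It had 7 and 133 expected counts (log2 ratio 3.75), and the liver markers moved the same way. The lower ones were Nctc1 with 59 and 29 counts (-1.14), Tspan32 with 56 and 18 (-1.70) and Pnldc1 with 17 and 7 (-1.23). All 4 averaged under 1 TPM, and 28 of the 54 were higher in replicate 2.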

How the data were processed

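Total RNA of 2 gastrocnemius samples (1 group, n = 2) was read from the deposited tables. The authors' deposited files hold, per library, expected counts and TPM for genes and for transcripts, with a posterior standard deviation of each count (a score), and a second set of transcripts with its own estimated counts and TPM. Per the file headers and labels, reads were placed on mm10 and its GENCODE M21 annotation. The aligner, programs and strand setting were not given in the sources used here. CAST/EiJ reads were counted on the mm10 reference.

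Here the second set of transcripts was summed per gene (the other quantification). Expected counts were rounded, scaled with edgeR 4.0.16 (R 4.3.3; TMM) and given as log2 ratios. DESeq2 1.42.0 size factors, library size and ERCC spike-ins were alternatives. Levels, shares and intervals were computed with Python 3.11.15, pandas 2.3.3 and scipy 1.17.1. The ratio script was tested on simulated data. tRNA and phiX entries held 28 and 45 counts. The gene tables summed to 30745756 and 35977559 expected counts over Ensembl genes.

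Members and lists were chosen with earlier results of these data known. Named were all members, all transcripts of H19 and Igf2, other members' transcripts at 10% or more of TPM, and up to 4 leading genes and every gene under 1 TPM of each list, except 1 gene that is not reported here. Genes named for an overlap, a ratio over 2-fold, or a known imprint, and a few further transcripts, were added after their values were seen. With 2 libraries of 1 group there was no test.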

Additional observations from a re-analysis of the deposited data

How the results depend on the processing

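No paired analysis was possible because the libraries form 1 group. The count of genes over 2-fold apart, 659, was 2567 with no count minimum and 87 at a mean of at least 100 counts. Among members it went from 0 to 1 with no count minimum, through Phlda2 with 4 and 1 counts. Airn made up 30.0% of Airn plus Igf2r in the other quantification and 3.21% on expected counts, beside 22.7%. Kcnq1ot1 made up 97.6% of the pair with Kcnq1 on expected counts, beside 51.0%. The Igf2 start at 142657496 held 17.8% in the other quantification and 37.7% on expected counts, beside 25.5%. H19-202 held 82.1% and 93.5% in the same settings, beside 89.1%. In the other quantification the Igf2 start at 142657496 no longer leads, with Igf2-209 at 29.6%. The other alternatives for these summary results kept shares within the SD between replicates and counts of genes within 1.5 times. No direction of a mean share reversed among them. In replicate 2 alone, Kcnq1ot1 held 49.3% of the pair with Kcnq1 in the other quantification, beside 51.5% in the main tables, so the leader turned there. Leaving out 1 of 2 libraries leaves a single value, which lies within the SD by construction and says nothing of stability. The cause of these changes was not tested. TPM of 8 of 8 members moved in the other quantification, and TPM of 5 of 8 moved without spike-ins and mitochondrial genes. The counting intervals of the ratios of Phlda2, Airn and Plagl1 include 0 on the log2 scale. These intervals leave out the choice of scaling. The log2 ratios of 6 of 8 members left them with library size, and 6 of 8 with spike-in scaling. H19 then had 0.16 and 0.07. In the other quantification 3 of 8 left them. With DESeq2 size factors or a prior count of 0.5, all 8 stayed inside.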
